A study of Mus musculus with 6 samples.

Results

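The Cfap genes (cilia and flagella associated proteins) were taken as every row of the deposited gene table whose symbol begins with Cfap followed by a digit, which gave 40 of 34144 gene rows. RNA was measured by sequencing in testis of 6 C57Bl/6J mice aged 3 months, 3 wild type and 3 labelled Nsun7-/-. Each library is labelled as 1 mouse. The spread between libraries therefore joins that between animals of the same strain and age and that of library preparation, which cannot be told apart. The RNA came from seminiferous tubules after removal of the capsule and was depleted of ribosomal and globin RNA. The labels do not describe the Nsun7 allele, any Cre driver or any shared treatment. The series title names Nsun7 as an RNA-binding protein that destabilizes mRNA of late spermatids and that the sperm tail's longitudinal columns need, and the question here was whether mRNA of the Cfap genes differed between the genotypes.

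Cfap proteins are named for their presence in the axoneme, the microtubule core that motile cilia and sperm tails share. Some line the inside of the doublet microtubules, others form the projections of the central pair, anchor the radial spokes or the inner dynein arms, or help to assemble dynein arms in the cytoplasm before transport. In testis the axoneme is built in round and elongating spermatids, and loss of several members, among them Cfap43, Cfap44, Cfap58, Cfap65 and Cfap69, is known to cause short, absent or malformed sperm tails and male infertility. The shared name therefore marks a place in the cell and not a common protein fold or a common ancestor.

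The libraries held between 23480448 and 28558865 estimated counts, of which Cfap genes took 0.230% to 0.257% in wild type and 0.243%, 0.242% and 0.295% in knockout mice 1, 2 and 3. Nsun7 itself, in CPM (counts scaled to a common library total and corrected for composition by the TMM method), was 36.6, 35.7 and 37.2 in wild type and 18.0, 17.8 and 25.2 in the knockout. Its log2 fold change, positive where the knockout was higher, was -0.84 (SE 0.15, adjusted p = 0.0160, edgeR's quasi-likelihood test with Benjamini-Hochberg adjustment over 21002 genes), so the targeted mRNA was lower in every knockout library but present in all. Knockout mouse 3 had the least reduction. The call was lost without wild-type mouse 1, 2 or 3 or knockout mouse 2 (adjusted p = 0.0848, 0.0556, 0.0785 and 0.0930, edgeR). Germ cell markers were present in all libraries, at widely different levels. Prm1 and Prm2, protamines of condensing spermatids, had between 39792 and 67052 and between 59792 and 98220 counts. The spermatocyte marker Sycp3 had 30 to 72 and the spermatogonial marker Nanos3 11 to 26. Of 13 markers of multiciliated epithelium, the other tissue type rich in Cfap mRNA, Sntn had 0 counts in all 6 libraries, and Cdhr3, Scgb1a1, Mcidas and Gmnc had between 0 and 9. Cdhr4 had 1317 to 1529, Deup1 431 to 908, Cdc20b 244 to 325, Ccno 254 to 288 and Tppp3 190 to 237, and Bpifb1, Foxn4 and Trp73 had between 11 and 126. The summed CPM of the 8 of these markers that could be tested was 109 to 118 in wild type and 104 to 111 in the knockout, and the ranges overlapped.

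Promoter sequence is shown because the RFX factors, known regulators of axonemal genes, bind the X-box, an inverted repeat whose conserved arm reads GTTGCC. RefSeq promoters (GRCm38.p6) were matched for 27 of the 40 members, and the 250 bases before the start were searched on both strands. GTTGCC was present in 10 of the 27 (37.0%) and in 11.8% of 27025 genes with a promoter in the same table. The full X-box, which contains GTTGCC and, after a gap of 2 bases, its inverted partner with 1 base left free, was present in 2 of the 27 (7.41%), Cfap20dc and Cfap298, and in 0.292% of all genes. The cAMP response element TGACGTCA, the site of the spermatid regulator CREM, was in 0 of the 27 and in 1.77% of all genes. The MYB letters AACNGTT were in 7.41% of members and 4.27% of all genes, and the forkhead letters GTAAACA in 7.41% and 3.54%. Only exact letters were counted, so a paired site with a changed base is not among the full X-boxes. The windows below, of 30 bases each on the strand of the gene, show the full X-boxes and examples of other arms, single, repeated or in inexact pairs. In Cfap44 the capitals follow, after a gap of 2 bases, an inverted partner with 1 changed base, which is not in capitals. GTTGCC or its reverse complement is in capitals.
Cfap20dc, chr14:8666375-8666404, minus strand: acaagcccctcaGTTGCCtgGGCAACggct
Cfap298, chr16:90935020-90935049, minus strand: gtttgggttttgGTTGCCcgGGCAACagct
Cfap298, chr16:90934901-90934930, minus strand: caatgtttgactGTTGCCcctGGCAACagc
Cfap161, chr7:83794888-83794917, minus strand: tcttgaccaactGGCAACtGGCAACtgcct
Cfap44, chr16:44394768-44394797, plus strand: ggacgttgctatGGCAACcgcagtaaacgg
Cfap58, chr19:47937641-47937670, plus strand: gggggcgtggcgGTTGCCaggcgaccgaag
Cfap20, chr8:95434946-95434975, minus strand: gaatagtcccttGGCAACcaagttccgcgc
The arms in Cfap20dc lie 102 and 94 bases before the start. Cfap298 carries 2 inverted pairs, 1 beginning 188 bases before the start and another, with a wider gap, 69 bases before it. A match is a description of letters and shows no binding, since no factor was measured.

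Expression of the family in testis spanned a wide range. Levels between genes are given in TPM, a scale with the same total in every library that allows for transcript length. The wild-type mean (n = 3) ran from 0.874 TPM for Cfap47 to 139.9 TPM for Cfap65, a ratio of 160.0, with a median over the 40 members of 23.6 TPM. The median over 29407 genes with a wild-type TPM above zero was 2.21, and 37 of the 40 members lay above it. A mean over 10 TPM was reached by 32 members and a mean of 50 TPM or more by 10, and the 5 highest held 38.5% of the family's TPM.

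Cfap65, a protein of the central apparatus, stood highest, with 108, 146 and 166 TPM in wild-type mice 1, 2 and 3 and 156, 165 and 186 TPM in knockout mice 1, 2 and 3. Cfap276, a protein inside the doublet microtubule, followed with 94.7, 142 and 152 TPM in wild type and 137, 148 and 152 TPM in the knockout. Cfap206, which docks a radial spoke to the doublet, had 89.9, 122 and 165 TPM in wild type and 127, 173 and 279 TPM in the knockout. Wild-type mouse 1 was the lowest of the 6 libraries for all 3 of these genes, and a single RNA, Rmrp, took 33.3% of that library's TPM against 11.4% to 22.2% in the others. TPM of every other gene moves with that share, so TPM serves here for the order of the genes, and CPM for the comparison of genotypes.

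Cfap43 (92.4 ± 20.0 TPM, SD, n = 3), part of the tether of an inner dynein arm, and Cfap126 (84.3 ± 9.17 TPM, SD, n = 3), a doublet protein also called Flattop, completed the 5 highest in wild type. At the other end, Cfap20dc had 3.08 ± 0.352 TPM, Cfap141 3.00 ± 1.79, Cfap97d2 1.95 ± 1.26, Cfap53 1.66 ± 0.422 and Cfap47 0.874 ± 0.154 (SD, n = 3 wild-type mice). Neighbours in the order were mostly not separated. Of 39 neighbouring pairs, 2 had wild-type ranges that did not touch (Cfap97d1 above Cfap20dc, and Cfap53 above Cfap47), 13 kept their order in all 3 wild-type libraries and 8 in all 6 libraries. In the knockout 4 of the 5 highest members and all 5 of the lowest were the same as in wild type.

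**Figure D1:**
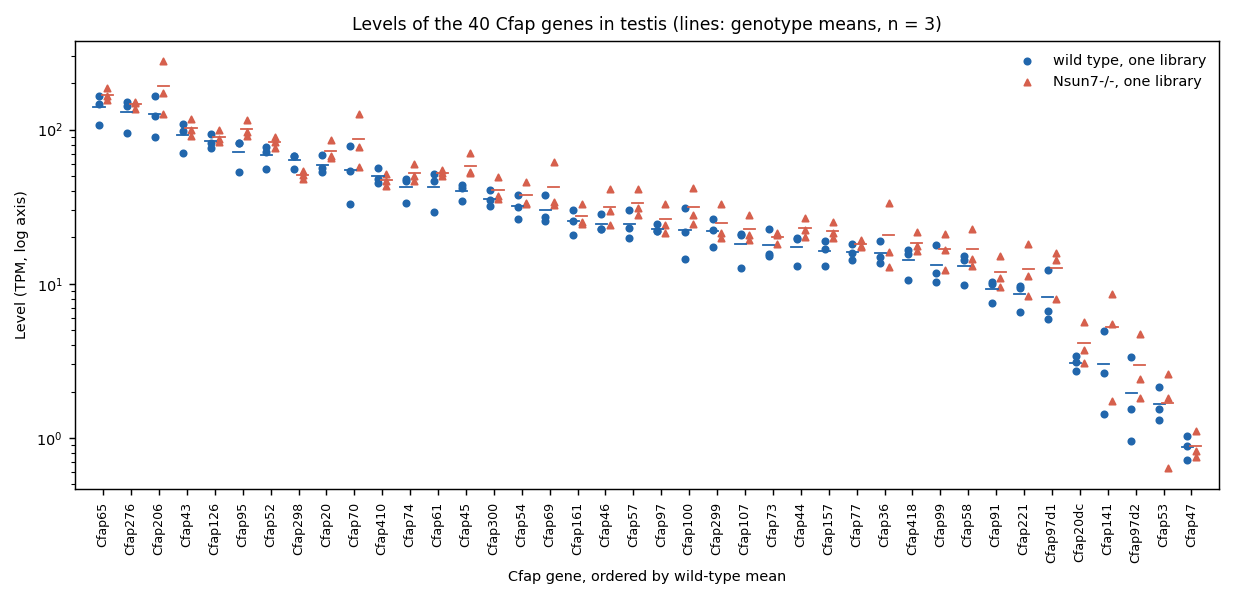
TPM of each Cfap gene on a log axis, genes ordered by wild-type mean, with 1 point per library (circles wild type, triangles Nsun7-/-) and a line at each genotype's mean (n = 3). Levels fall from 139.9 TPM for Cfap65 to 0.874 TPM for Cfap47, with a step between Cfap97d1 and Cfap20dc, and the points of neighbouring genes overlap nearly everywhere.

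No Cfap gene passed the test of knockout against wild type. All 40 members passed the filter on low counts, and 0 of 40 had an adjusted p under 0.05, where 119 of 21002 genes (0.567%) did (edgeR's quasi-likelihood test). An unadjusted p under 0.05 was found for 1 member, Cfap410, against 8.39% of all genes tested. DESeq2 and limma voom likewise called 0 members, where they called 213 and 102 of 21002 genes. They gave an unadjusted p under 0.05 for 2 and 1 members and for 1532 and 1723 genes. The log2 fold change was above 0 for 21 members (52.5% of the family, and 52.5% of all genes) and below 0 for 19. Its median was 0.0033, beside 0.015 over all genes tested.

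The intervals limit how large a difference these 6 libraries leave room for. The 95% interval of the fold change lay inside a 2-fold change in either direction for 39 of 40 members (97.5%, and 81.4% of all genes tested), the exception being Cfap141. It lay inside a 1.5-fold change for 33 members (82.5%, and 54.1% of all genes). The median SE was 0.139 on the log2 scale, beside 0.168 over all genes. These intervals do not show that the genotypes are equal, and in whole tubules fewer cells of a type and less RNA per cell cannot be told apart.

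**Figure D2:**
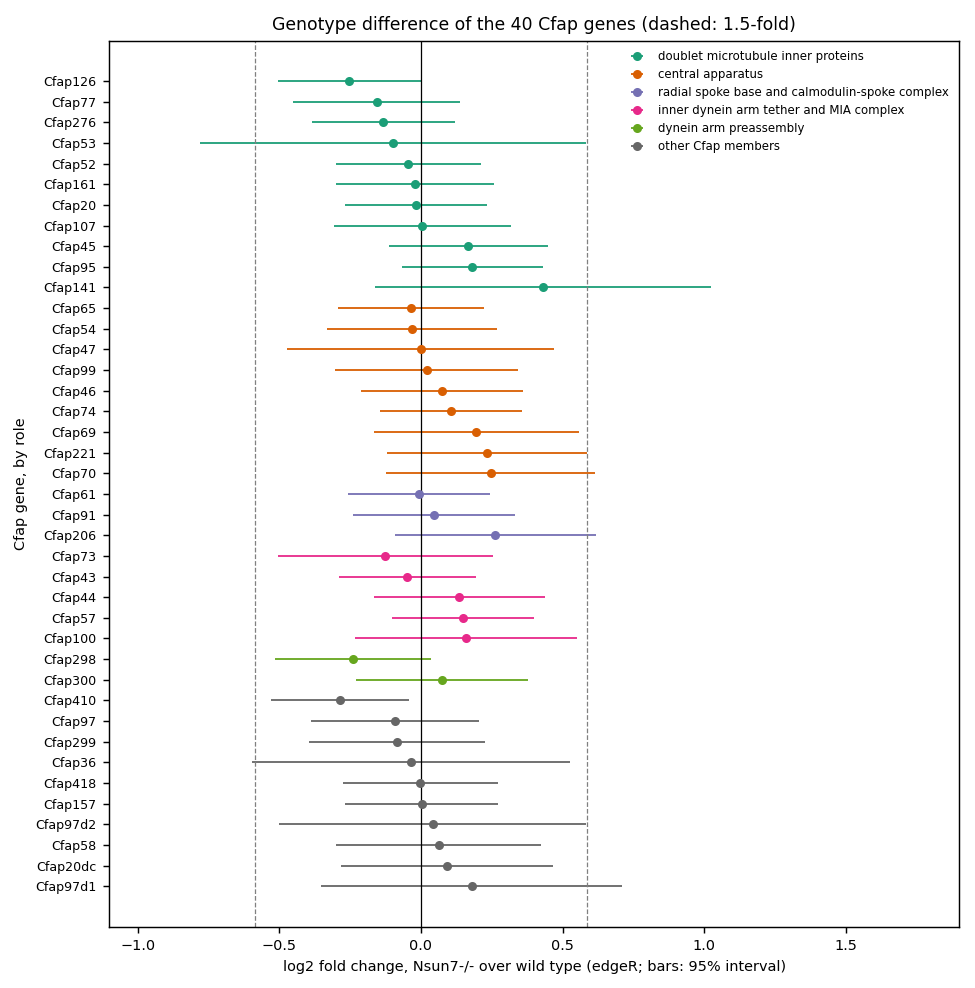
Log2 fold change of each Cfap gene in CPM, Nsun7-/- over wild type (n = 3 each), with its 95% interval from edgeR, grouped and coloured by role, with dashed lines at a 1.5-fold change. All but 1 estimate lie between -0.3 and 0.3, and Cfap410 is the single gene whose interval does not reach 0.

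Microtubule inner proteins bind the lumen of the doublets and stabilise them. Of the 11 members with that role, 4 were above and 7 below 0, with a median log2 fold change of -0.02. Cfap126 had 65.0, 53.9 and 55.6 CPM in wild type and 50.4, 48.9 and 47.0 CPM in the knockout. Every knockout library was below every wild-type library, as it was for 3 of the 40 members and 6.95% of all genes. In either direction the genotypes did not overlap for 4 members and 14.3% of all genes. The log2 fold change of Cfap126 was -0.25 (SE 0.12, 95% interval -0.51 to 0.00051, adjusted p = 0.596 with edgeR), and a two-sided exact permutation test on CPM gave p = 0.1, the smallest that 3 against 3 libraries allow.

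Cfap95 was the one member with all knockout libraries above all wild-type libraries (7.38% of all genes), at 43.6, 52.3 and 45.8 CPM in wild type and 54.2, 52.7 and 53.8 CPM in the knockout (a log2 fold change of 0.18, adjusted p = 0.670). Wild-type mouse 2 differed from knockout mouse 2 by less than 1 CPM. Cfap276, the doublet member with the highest wild-type mean TPM, had 53.9, 62.6 and 58.5 CPM in wild type and 55.9, 55.1 and 48.7 CPM in the knockout, and the genotypes overlapped. The largest estimate of the family, 0.43 for Cfap141, came from one of its lowest genes, at 2.04, 1.9 and 3.31 CPM in wild type and 2.43, 2.89 and 4.43 CPM in the knockout. Its 95% interval ran from -0.16 to 1.02. Cfap20, which joins the inner edges of the A and B tubules, and Cfap161, Cfap52 and Cfap107 had estimates between -0.04 and 0.0045.

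The central apparatus surrounds the central pair of microtubules and regulates the beat. Its 9 members had 6 estimates above and 3 below 0 (median 0.07), and 0 were without overlap between the genotypes. Cfap65 had 644, 685 and 686 CPM in wild type and 682, 662 and 623 CPM in the knockout (a log2 fold change of -0.03, 95% interval -0.29 to 0.22). It had the highest CPM of the family in all 6 libraries. In TPM it was highest by the wild-type mean, while Cfap206 was above it in knockout mice 2 and 3. Cfap70 had 103, 112 and 143 CPM in wild type and 115, 129 and 180.1 CPM in the knockout, and the log2 fold change was 0.25 (SE 0.17, adjusted p = 0.682). The highest value belonged to knockout mouse 3, and without that library the estimate was 0.03 (adjusted p = 0.980). Cfap69 behaved alike in that respect: knockout mouse 3 had 66.5 CPM, the other 5 libraries 41.0 to 45.6, and the estimate went from 0.20 to -0.07 without it.

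Radial spokes carry signals from the central pair to the dynein arms. Cfap61 and Cfap91 belong to the calmodulin- and spoke-associated complex at the spoke base, and their estimates were -0.01 and 0.05. Cfap206 had 133, 139 and 159 CPM in wild type and 136, 157 and 224 CPM in the knockout, with a log2 fold change of 0.26 (SE 0.16, adjusted p = 0.665). Knockout mice 1 and 2 lay within the wild-type range. Without knockout mouse 3 the estimate was 0.02, and without both that library and wild-type mouse 1 it was -0.02.

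Cfap43 and Cfap44 tether the head of an inner dynein arm, Cfap57 is an adaptor of inner arms, and Cfap73 and Cfap100 form the modifier of inner arms complex. The 5 estimates lay between -0.13 (Cfap73) and 0.16 (Cfap100). Cfap43 had 128, 143 and 140.3 CPM in wild type and 129, 127 and 140.3 CPM in the knockout. Cfap57 had 87.6, 80.5 and 92.8 CPM in wild type and 91.4, 92.2 and 105 CPM in the knockout (a log2 fold change of 0.15, adjusted p = 0.710). The genotypes overlapped in both. Cfap73 was low in knockout mouse 3 alone, at 8.93 CPM against 10.4 to 13.6 in the other libraries. Where strand is not stated to have been kept, overlapping genes can share reads, and in GENCODE M21 Cfap43 overlaps Gsto1 and Gsto2 on the other strand, Cfap73 overlaps Ddx54 and Cfap100 overlaps Zxdc.

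Cfap298 and Cfap300 act in the cytoplasm, where dynein arms are assembled before they enter the axoneme. Cfap298 had 39.1, 30.2 and 33.8 CPM in wild type and 29.5, 28.1 and 29.8 CPM in the knockout. The genotypes did not overlap, although wild-type mouse 2 and knockout mouse 3 differed by less than 1 CPM. The log2 fold change was -0.24 (SE 0.13, 95% interval -0.51 to 0.04, adjusted p = 0.637). Cfap300 was at 29.6, 28.6 and 30.9 CPM in wild type and 28.5, 27.4 and 37.9 CPM in the knockout, with the lowest and the highest library both in the knockout.

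The remaining 10 members have other or less defined roles, and 5 of their estimates were above and 5 below 0. Cfap410, a basal body and centrosome protein that works with the kinase Nek1, had 69.4, 67.5 and 65.8 CPM in wild type and 56.8, 59.0 and 50.6 CPM in the knockout. All 3 knockout libraries were lower than all 3 wild-type ones. The log2 fold change was -0.29 (SE 0.11, 95% interval -0.53 to -0.04, p = 0.0249, adjusted p = 0.528 with edgeR), and the two-sided exact permutation p was 0.1. It stayed below 0 under all 16 other settings, from -0.36 to -0.08, with adjusted p of at least 0.217. Cfap58, a sperm tail protein, had an estimate of 0.06, and Cfap157, needed for the sperm tail in mice, 0.0022. Cfap97d1, known for upkeep of the sperm tail in male mice, was at 3.26, 2.25 and 3.74 CPM in wild type and 2.47, 3.75 and 4.21 CPM in the knockout.

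One library stood apart across the members. Knockout mouse 3 had the highest CPM for 22 of 40 members (55%), against 31.2% of all genes tested, and the lowest for 7 members (17.5% of the family) against 28.7% of all genes. Relative to each gene's mean log2 CPM over the 6 libraries, the median of the family was 0.21 in knockout mouse 3, -0.09 in knockout mouse 1 and -0.05 in knockout mouse 2, and between -0.03 and 0.03 in the wild-type libraries. Over all genes tested the median in knockout mouse 3 was 0.02. Among lists of genes without the Cfap name it was 0.13 there for radial spokes and the nexin-dynein regulatory complex. It was 0.11 for the central apparatus, 0.05 for doublet inner proteins, -0.03 for dynein preassembly and -0.08 for transcription factors of ciliary and spermatid genes. The ratio of knockout mouse 3 to the mean of the other 5 libraries ran from 0.707 for Cfap73 and 0.794 for Cfap410 to 1.55 for Cfap206 and Cfap69, 1.58 for Cfap36 and 1.76 for Cfap141. Without this library 13 members had estimates above 0 and 27 below (median -0.07, and -0.0047 over all genes), and 0 were called. An unadjusted p under 0.05 was then found for 4 of 40 members and 1635 of 21213 genes.

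By role, 8 of the 9 central apparatus genes and 8 of the 10 members with other roles were above their own means in knockout mouse 3, as were 4 of 5 inner arm genes, 2 of 3 spoke base genes, 7 of 11 doublet proteins and 1 of 2 preassembly genes. Of all genes tested 52.5% were above their own means in that library, and no difference between roles was tested. Of the 7 members lowest in that library, 4 were doublet proteins (Cfap276, Cfap77, Cfap126 and Cfap52), and the others were Cfap65, Cfap73 and Cfap410. Markers of cell types varied over the libraries as well. Relative to the means over libraries, the median of 10 Sertoli cell markers was -0.34 in knockout mouse 3 and -0.01 to 0.16 in the others, and that of 12 pachytene spermatocyte markers -0.10 against -0.06 to 0.10. The median of 10 spermatogonial markers was -0.15 there and -0.04 to 0.12 in the others. Other lists were as low or lower elsewhere: 12 elongating spermatid markers were at -0.17 there, -0.19 in knockout mouse 1 and 0.25 in wild-type mouse 3, and 10 macrophage markers at -0.36 there, -0.38 in wild-type mouse 3 and 0.62 in knockout mouse 1. The median of 12 round spermatid markers was 0.00075 in knockout mouse 3. Of 8 Leydig cell markers 2 were called higher and 0 lower, where 0.567% of all genes were called, and 3 were without overlap. Their summed level was 1800.2 to 2947 CPM in wild type and 2219 to 4937 CPM in the knockout, and these ranges overlapped. Of the 8 Leydig cell markers 7 had a log2 fold change above 0 (52.5% of all genes), with a median of 0.70. An unadjusted p under 0.05 was found for 4 of them (8.39% of all genes, edgeR). All 10 macrophage markers were above 0, with a median of 0.25, and 0 had an unadjusted p under 0.05. The part of these cell types in the Cfap values was not tested.

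**Figure D3:**
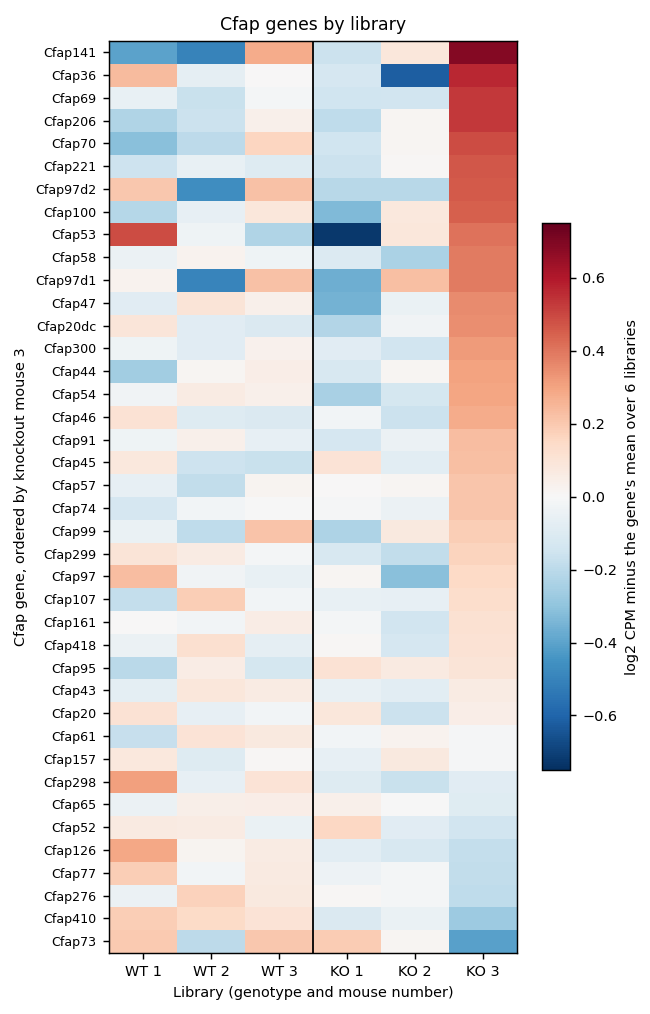
Heat map of log2 CPM minus each gene's mean over the 6 libraries, Cfap genes in rows ordered by knockout mouse 3 and libraries in columns, with a line between wild type and Nsun7-/-. Red (higher) fills most of the column of knockout mouse 3, with a family median of 0.21, while knockout mice 1 and 2 are mostly pale blue, with medians of -0.09 and -0.05.

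The deviation of knockout mouse 3 went with base composition. GC content, weighted over each gene's transcripts by their counts, was known for 34 members and ran from 37.8% (Cfap47) to 57.1% (Cfap73). Across these 34 genes of 1 library, GC content and the deviation of knockout mouse 3 had a Pearson correlation of -0.57 (Spearman -0.59), and across 19900 genes tested the values were -0.47 and -0.55. For the other 5 libraries the Pearson correlations across the members lay between 0.01 and 0.38. Each gene's deviations cancel over the 6 libraries, so these positive values are not independent of the negative one. The genes share a library, its depth and its base composition, so they are no independent replicates and no p is given. The 20 members with a known GC content that were highest in knockout mouse 3 had a median of 48.3% (37.8% to 54.8%), and the 6 that were lowest there a median of 53.3% (48.7% to 57.1%). Cfap410 (57.0%) and Cfap298 (56.8%) are among the most GC-rich members, and without knockout mouse 3 they were at -0.23 (adjusted p = 0.513) and -0.26 (adjusted p = 0.651). Whether base composition accounts for any Cfap value was not tested.

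**Figure D4:**
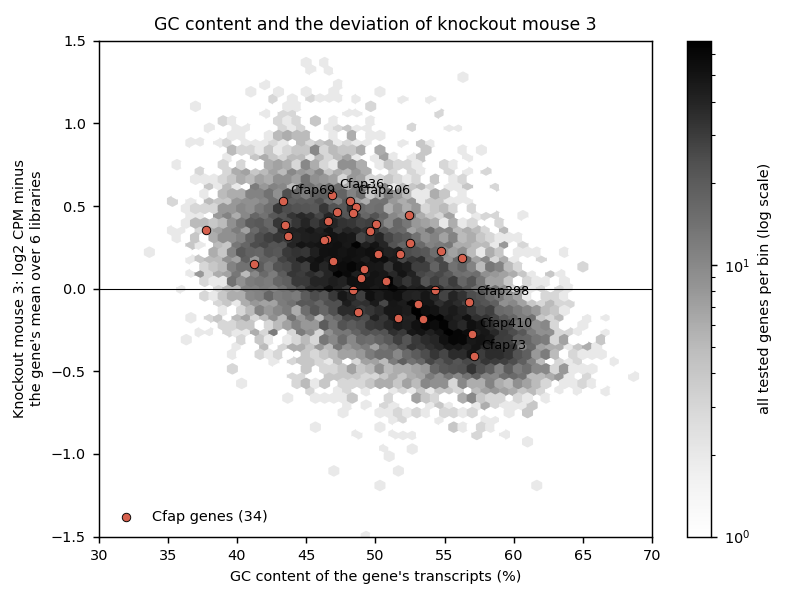
GC content of each gene's transcripts (percent) against the deviation of knockout mouse 3 (log2 CPM minus the gene's mean over 6 libraries), with 34 Cfap genes as points over the density of all tested genes in grey on a log scale. Points and density both slope downward, from Cfap69 above 0.5 to Cfap73 below -0.4.

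Transcript estimates were available for 34 members, with 193 annotated transcripts between them. The transcript with the most TPM was of a protein-coding type in 25 members and the same in all 6 libraries in 23. In 15 members over 90% of wild-type TPM lay on protein-coding transcripts, and in 8 under 50%. The lowest was Cfap43, where 7.64% of TPM lay on the coding transcript of 5968 bases, and the rest mostly on 2 retained-intron transcripts of 892 and 2303 bases (48.9% and 35.8%). In Cfap298 a processed transcript of 374 bases led in the 3 wild-type libraries and a transcript of 1014 bases annotated for nonsense-mediated decay in the 3 knockout libraries. Gene-level TPM of these members is therefore not a level of coding mRNA, and the coding TPM in wild type was 7.06 for Cfap43 and 113 for Cfap65. For Cfap74 the matched transcripts held 49.0% of the deposited gene count, and its shares are incomplete.

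No Cfap transcript and no Cfap isoform usage passed its test. Of 133 transcripts tested 0 were called, where 16 of 58773 (0.0272%) were, and 7 had an unadjusted p under 0.05, against 4.76% of all transcripts. Of 28 members tested for isoform usage (edgeR's test of whether the transcripts of a gene change by different amounts) 0 were called, where 0.785% of 11978 genes were, and 2 had an unadjusted p under 0.05, against 6.73% of genes. The smallest p in that test was for Cfap65, where a retained-intron transcript of 3947 bases held 12.6%, 13.8% and 14.8% of TPM in wild type and 17.2%, 17.0% and 19.8% in the knockout (adjusted p = 0.301, edgeR). All knockout shares were above all wild-type shares. Its coding transcript of 5727 bases held 80.9 ± 1.09% in wild type and 77.6 ± 2.5% in Nsun7-/- mice (SD, n = 3). The other retained-intron transcript of Cfap65, of 3425 bases, went the opposite way. Its log2 fold change was -0.34, against 0.36 for that of 3947 bases (adjusted p = 0.932 for each, edgeR).

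The 3 transcripts of smallest p were short, with 655, 566 and 647 bases. Those that followed, of Cfap61, Cfap65 and Cfap69, had 2256, 3947 and 2080 bases. Short transcripts went in both directions. In Cfap126 a transcript of 581 bases had a log2 fold change of -1.26 and another of 528 bases 1.14 (adjusted p = 0.932 for each, edgeR). A non-coding Cfap410 transcript of 655 bases held 33.6%, 27.2% and 26.5% of the gene's TPM in wild type and 19.8%, 18.6% and 15.5% in the knockout, with a log2 fold change of -1.11 (SE 0.28, adjusted p = 0.727 over all transcripts). Its estimated counts were 191, 148 and 149.7 in wild type and 86, 95 and 72 in the knockout. The genotypes did not overlap in either measure. The main coding Cfap410 transcript, of 1818 bases, was at -0.25 (95% interval -0.59 to 0.09).

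For Cfap161 a coding transcript of 566 bases did not pass the threshold, at -0.75 (SE 0.21, adjusted p = 0.868), with shares of 52.1%, 46.5% and 46.4% in wild type and 37.7%, 33.9% and 30.8% in the knockout. For Cfap43 a non-coding transcript of 647 bases was at -1.21 (SE 0.37, adjusted p = 0.932), with shares of 7.51%, 6.76% and 8.55% in wild type and 3.32%, 5.60% and 2.28% in the knockout. The Cfap161 and Cfap43 genes as a whole were at -0.02 and -0.05, with overlap. The 374-base transcript of Cfap298 held 55.2%, 44.5% and 39.9% in wild type and 27.9%, 12.6% and 0% in the knockout, yet its log2 fold change of -2.40 had an SE of 1.18 (adjusted p = 0.932). Cfap300 had the third smallest p for isoform usage (adjusted p = 0.747, edgeR), with 50.5 ± 8.16% of TPM on a transcript of 533 bases in wild type and 37.4 ± 11.8% in Nsun7-/- mice (SD, n = 3), and there the genotypes overlapped.

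These short transcripts were looked at together after their values were seen, so the count is a description. Of 23 members that have transcripts both under and over 700 bases, the TPM share on the short ones was lower on average in the knockout in 13 (56.5%), and in 50.8% of 9600 genes. It was lower without overlap in 5 of the 23 (Cfap161, Cfap298, Cfap410, Cfap43 and Cfap52), where 5.64% of genes were, and higher without overlap in 0 (4.84% of genes). For Cfap52 the short share was near zero throughout, at 0.598%, 0.454% and 0.553% in wild type and 0%, 0% and 0.160% in the knockout. The deposited effective lengths imply mean fragments of 154 bases for wild-type mouse 1, 168 for mouse 2 and 175 for mouse 3, and of 176 to 179 bases in the knockout. Wild-type mouse 1, with the shortest fragments, had the highest short-transcript share for 7 of the 23 members (among them Cfap161, Cfap298, Cfap410, Cfap52 and Cfap300, but not Cfap43) and the lowest for 5 (Cfap100, Cfap157, Cfap54, Cfap61 and Cfap70). Over the 9600 genes its TPM share was the highest for 2122 and the lowest for 1425. Its median TPM share over the 23 members was the lowest of the 6 libraries, at 14.9% against 15.7% to 25.9%. In estimated counts that median was 4.57%, against 3.24% to 4.59% in the others. Over the 9600 genes the median of wild-type mouse 1 was 18.3% in TPM, against 17.4% to 18.9%. In estimated counts it was the highest, at 3.45% against 3.07% to 3.37%. The part of fragment length in these shares was not tested.

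**Figure D5:**
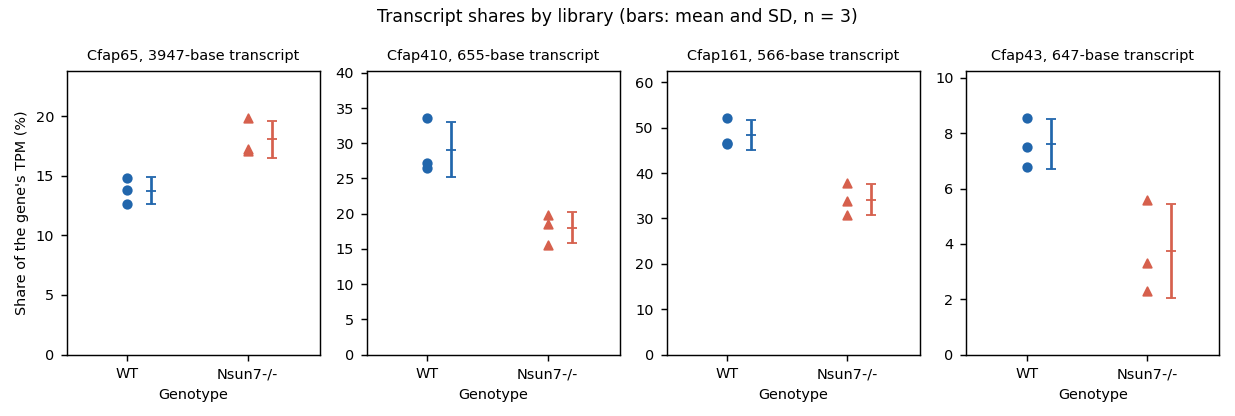
Share of the gene's TPM (percent, axes from 0) on 1 transcript each of Cfap65, Cfap410, Cfap161 and Cfap43, with 1 point per library and bars for mean and SD (n = 3). The genotypes do not overlap in any of the 4 panels: the Cfap65 retained-intron transcript of 3947 bases is higher in Nsun7-/- (17.0% to 19.8% against 12.6% to 14.8%) and the other 3 are lower. Each transcript was chosen as the one of smallest p of its gene, so this separation is partly built in by the choice. Of 133 Cfap transcripts tested 0 were called, and the share of all transcripts that separate in this way was not counted.

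Among other genes of the same structures 0 were called in each list. Of 20 further doublet inner proteins tested, 11 were above and 9 below 0, and the smallest p belonged to Efhc2, at 3.76, 4.65 and 3.78 CPM in wild type and 4.28, 5.17 and 7.83 CPM in the knockout (a log2 fold change of 0.51, adjusted p = 0.575). Of 12 further central apparatus genes 6 were above and 6 below 0, and Stk36, a kinase needed for the central pair, was at -0.26 (adjusted p = 0.597), with 305, 352 and 300.5 CPM in wild type and 283, 272 and 244 CPM in the knockout. The genotypes overlapped for Efhc2 and not for Stk36.

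Of 23 radial spoke and nexin-dynein regulatory complex genes 9 were above and 14 below 0. Rsph6a, the spoke head protein of sperm, had the largest difference of that list, at 358, 317 and 327 CPM in wild type and 269.7, 262 and 205 CPM in the knockout (a log2 fold change of -0.44, SE 0.13, adjusted p = 0.287). All knockout libraries were below all wild-type ones. Of 14 further dynein preassembly factors 6 were above and 8 below 0, with Lrrc6 at 0.42 (adjusted p = 0.541) and values of 6.93, 7.17 and 6.90 CPM in wild type and 8.08, 8.32 and 11.6 CPM in the knockout. Of 12 transcription factors of ciliary and spermatid genes, 4 were above and 8 below 0. The smallest p was for Taf7l, a germ cell subunit of the general transcription machinery (-0.25, adjusted p = 0.614). Unadjusted p-values under 0.05 numbered 1, 0, 2, 3 and 0 in these 5 lists, where 8.39% of all genes had one. Genes without overlap between the genotypes numbered 1, 1, 2, 3 and 3, where 14.3% of all genes were without overlap.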

How the data were processed

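Testis RNA-seq libraries of 3 wild-type mice and of 3 Nsun7-/- mice entered all fits. Reads were quantified with kallisto 0.50.1 and build mm39, per the submitters' processing notes. Annotation release and strand setting: not given in the sources used here. Deposited by the authors were estimated counts and TPM per gene symbol, and per library estimated counts, TPM and effective lengths for 126126 transcripts, per the file headers. Deposited gene counts are whole numbers, while transcript estimates were rounded before testing.

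The count model was edgeR 4.0.16 under R 4.3.3: TMM scaling, filterByExpr (minimum count 10, minimum total 15), robust quasi-likelihood fit with genotype as the sole term, and a Benjamini-Hochberg adjusted threshold of 0.05 over all 21002 genes or 58773 transcripts. SEs were obtained from the fold change and the F value of its test. The tests were checked on simulated counts. Depth was 23480448 to 28558865 counts per library. The median biological coefficient of variation, the spread between libraries of a genotype beyond counting error, was 12.8% for Cfap genes and 14.6% over genes. Alternatives used limma 3.58.1 (voom, and log2 of TPM plus 1 or 0.1), DESeq2 1.42.0, other scalings, no filter, the mouse number as a block, and libraries left out.

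Transcripts were joined to genes, and types, overlaps and GC taken, with GENCODE M21 (GRCm38). Of the transcripts 91.9% matched, and 34 of 40 members, 3 of them through older symbols. Cfap107, Cfap141, Cfap276, Cfap418, Cfap91 and Cfap95 did not.

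The members, lists, tests and rule for named genes were chosen with earlier results of these data known. The genes named with tests are Nsun7, members with p under 0.05, the smallest p and highest level in each role, the 5 highest and 5 lowest levels, the 3 smallest p-values for transcripts and for isoform usage, and the smallest p of each partner list. Others are named for level, role or library pattern. After values were seen, Daw1, Mok and 1700001P01Rik were removed from the doublet list and Iqub moved to the spoke list because their roles had been misassigned.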

Additional observations from a re-analysis of the deposited data

How the results depend on the processing

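Under 16 other settings for genes and 9 for transcripts and isoform usage, 0 Cfap genes, transcripts or usage tests were called, and the smallest adjusted p of a member was 0.217 (Cfap410, with the mouse number as a replicate block). The labels do not state that mouse numbers pair the animals. Deviations of same-numbered mice correlated at 0.177, -0.005 and 0.199. The best wild-type match had the same number for knockout mice 1 and 3 and not for knockout mouse 2, which leaves pairing unsettled. With the block 331 genes were called, and 3 of 40 members and 2849 of 21002 genes had an unadjusted p under 0.05. Over all genes, where 119 were called, the count was 180 without a low-count filter, 213 with DESeq2, 61 and 68 on log2 TPM with pseudocounts 1 and 0.1, 63 on centred log2 TPM, and 67 to 166 with 1 mouse left out (67 without wild-type mouse 1). On log2 TPM 44 and 48 calls were higher and 17 and 20 lower, against 49 and 70 in counts. The family's median log2 fold change was 0.3089 and 0.3327 on log2 TPM, with 37 members above 0, while the median of all genes was at 0.240 and 0.299. It lay between -0.07 and 0.10 with 1 mouse left out, at 0.02 on centred TPM and at -0.08 without wild-type mouse 1 and knockout mouse 3, both chosen after seeing the data. Nsun7 kept its direction and missed the threshold in 7 settings, those on TPM and those without a wild-type mouse or knockout mouse 2.

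Of 352 values of 22 named genes 310 kept direction and side and 35 changed sign. On log2 TPM with pseudocounts 1 and 0.1 the new values were 0.2879 and 0.2898 for Cfap65, 0.09211 and 0.09308 for Cfap126, 0.196 and 0.1975 for Cfap276, 0.1642 and 0.1659 for Cfap43, 0.01263 and 0.02269 for Cfap47, 0.1049 and 0.1086 for Cfap161, 0.1735 and 0.1752 for Stk36, and 0.05739 and 0.06128 for Taf7l. The median of all genes was 0.240 and 0.299 on that scale, against 0.015 in counts. On centred TPM Cfap65 was at 0.0001837 and Cfap300 at -0.1159. Without wild-type mouse 1 and knockout mouse 3 the values were -0.06031 for Cfap70, -0.02456 for Cfap206, -0.02157 for Cfap20dc, -0.1278 for Cfap97d2 and -0.09096 for Cfap300. With 1 mouse left out at a time the values ran from -0.0911 to 0.2003 for Cfap20dc, from -0.2349 to 0.1573 for Cfap97d2, from -0.3841 to 0.153 for Cfap53, from -0.2222 to 0.1425 for Cfap47, from -0.09568 to 0.04001 for Cfap161 and from -0.09335 to 0.1605 for Cfap300. The lowest value of each of these 6 genes came without knockout mouse 3. Cfap47 was at 4.564e-05 with upper quartile scaling. The cause of these changes of sign was not tested.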
